A study of Mus musculus with 27 samples.

Results

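The *Zfp* genes, mouse genes named for encoding zinc finger proteins, were followed through every RNA-Seq experiment of a study of the erythroid co-repressors ETO2 and IRF2BP2. The members were chosen by symbol (*Zfp* followed by a number and at most 1 letter) and by level. A member needed a mean of at least 2 RPKM (reads scaled to transcript length and library size) in the 2 control libraries of the *Cbfa2t3* knockdown (KD) table. That table lists 17681 genes, of which 337 carry such a symbol, and 221 of these were at or above the limit. The remaining 116 were under it, and 10 of them were at 0 in both controls. All 221 members are listed in each of the 5 RNA-Seq tables and passed the filter on low counts in every comparison. Because the controls of the *Cbfa2t3* KD chose the members, their values in that experiment are given as a description. The limits for a call are used there only to count members, no p is given, and nothing is read from the counts.

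The cells were mouse erythroleukaemia (MEL) cells, a transformed line arrested at an erythroid progenitor stage that matures when induced. *Cbfa2t3*, which encodes ETO2, was depleted with lentiviral short hairpin RNAs (shRNAs) sh2 and sh3, each in 2 libraries, against 2 control libraries. *Irf2bp2* was depleted with shRNA sh1 (2 libraries against 2) and *Kdm1a*, encoding the demethylase LSD1, with an shRNA (2 libraries against 1 control). *Gfi1b*, which encodes a transcriptional repressor, was targeted with small interfering RNAs (2 libraries against 2). The labels name the control libraries "WT", but the study's methods state that controls received non-targeting shRNA or siRNA. In the fifth experiment induced MEL cells (2 libraries) were compared with non-induced cells (2 libraries). All groups are therefore the same cell line, and the *Irf2bp2* and *Kdm1a* KDs have no second hairpin in the labels, so a hairpin's own effects and those of losing its target cannot be told apart there. The agent that induced the cells is not given in the sources used here. The study states that replicates were independent biological samples, and p-values below measure the spread between these libraries.

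Zinc finger proteins fold short stretches of the chain around a zinc ion. In the C2H2 type, repeated fingers read DNA bases in a row, while other finger types bind RNA or proteins. Many mammalian C2H2 proteins also carry a KRAB box, which recruits TRIM28 (KAP1) and with it the histone methyltransferase SETDB1 and HP1 proteins, so that the bound DNA, often a retroelement, is packed into silent chromatin. KRAB zinc finger genes lie in clusters of related copies, and most have no known role in red cells.

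The *Cbfa2t3* KD, *Irf2bp2* KD and *Kdm1a* KD libraries held 44519414 to 57684583 counted reads, and the shallower *Gfi1b* and induction libraries 9929311 to 19623105. The erythroid factors *Gata1* (347 to 677 counts scaled to library size, CPM) and *Epor* (148 to 476 CPM) were present in all 21 libraries. Not every table lists every marker. Summed per library over those listed, the myeloid markers (1 to 4 genes) reached at most 0.424 CPM, the lymphoid markers (2 or 3) 1.36 CPM and the fibroblast markers (2 or 3) 1.24 CPM, with *Mpo* at most 0.129 in the 13 libraries that list it and *Csf1r* at most 0.403 CPM. The adult globin genes *Hbb-b1* and *Hba-a1*, which have near-identical copies, were at most 0.0387 (10 libraries) and 1.76 CPM (21 libraries). The targeted genes were checked first. *Cbfa2t3* was at 400.3 and 427 CPM in the controls, at 202 and 244 CPM with sh2, and at 123 and 145 CPM with sh3. *Kdm1a* went from 152 CPM in its control to 16.9 and 16.3 CPM. *Irf2bp2* was at 116 and 119.7 CPM against 92.2 and 94.9 CPM, a log2 difference of -0.33. *Gfi1b* was at 122 and 145 CPM in the controls, at 216 CPM in the library labelled KD 1 and at 76.5 CPM in the library labelled KD 2. KD 1 therefore goes against its label. Over 10113 genes its log2 CPM correlated with those of induced library 1 at r = 0.974, while the 2 induced libraries correlated with each other at r = 0.969 and KD 1 with KD 2 at r = 0.92. These correlations are across genes, which are not independent replicates.

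Per transcript length, the members were modestly expressed. Their median control level was 7.13 RPKM (quartiles 4.01 and 11.7), against 16.8 RPKM over all genes of the table at 2 RPKM or more. Of the 221 members 71 reached 10 RPKM and 75 were under 5. The highest was *Zfp207* (BuGZ, a spindle checkpoint factor) at 88.1 RPKM. It was followed by *Zfp106*, an RNA-binding protein, at 82.1, *Zfp385a*, an RNA-binding protein, at 48.2, *Zfp598*, a ubiquitin ligase that marks collided ribosomes, at 44.9, and *Zfp330* at 42.3 RPKM. Just inside the limit lay *Zfp235* (2.06), *Zfp82* (2.01) and *Zfp595* (2.001), and just outside it *Zfp608* (1.96), *Zfp273* (1.92) and *Zfp90* (1.92 RPKM). Some levels differed between the tables. *Zfp266* was at 26.2 RPKM in the controls of the *Cbfa2t3* table and at 73.5 RPKM in the non-induced cells, and *Zfp26* at 10.9 against 26.9 RPKM. The tables were counted separately, so levels are compared only within each of them below.

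The coding sequences of 218 members were matched in GENCODE M1 and translated. A KRAB-like core, a fixed pattern of 8 anchor residues, was found in 85 members, and 129 members had C2H2 fingers without it. *Zfp330*, *Zfp703*, *Zfp707* and *Zfp839* had neither in the coding sequence used, which does not show that these genes encode none. *Zfp131*, *Zfp65* and *Zfp433* had no coding sequence matched. The pattern is strict. *Zfp568* and *Zfp445*, both described as KRAB proteins, did not match it in the transcript used, so the absence of the core is not the absence of a KRAB box. Members with the core had a median of 12 fingers (range 2 to 23) and a median level of 5.17 RPKM. Members with C2H2 fingers and no core had a median of 8 fingers (range 1 to 36, the highest count in *Zfp142*) and a median level of 8.82 RPKM. Of the 215 members placed on mm9, 56 lay on chromosome 7, 29 on chromosome 17 and 16 on chromosome 13. In 10 runs, at least 4 members followed each other within 300 kb, and the largest run held 13 members (chr7:30553571-30954746, from *Zfp84* to *Zfp146*). The span of 26 members overlaps another annotated gene, and the counting is not stated to use strand, so reads of such pairs cannot be told apart. Counts of near-identical copies within a run are uncertain as well, since a read can map to several copies.

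Binding data for ETO2 and IRF2BP2 in MEL cells were deposited as 3 classes of sites, those of ETO2 only, those shared by both proteins and those of IRF2BP2 only. A site centre lay within 5 kb of the transcription start site (TSS) of 54 of the 215 placed members (25.1%), against 3217 of 9198 protein-coding genes at 2 RPKM or more (35%). Most of these were IRF2BP2-only sites, at 47 members (21.9%, against 31.1% of the genes). Shared sites lay near 6 members (2.79%, against 4.37%) and ETO2-only sites near 4 (1.86%, against 2.3%). Of the 84 placed members with the KRAB-like core, 15 (17.9%) had a site of any class, and of the 127 with C2H2 fingers alone 37 (29.1%) had one. The members near a shared site were *Zfp1*, *Zfp316*, *Zfp341*, *Zfp385a*, *Zfp740* and *Zfp760*, and those near an ETO2-only site *Zfp217*, *Zfp599*, *Zfp617* and *Zfp882*. *Zfp385a* had the most enriched of these sites, 46-fold over its control reads, at chr15:103169576-103170530 in the intron, with its centre 496 bases inside the gene. *Zfp1* had a shared site on each side of its start, 10.3-fold enriched 817 bases upstream and 16-fold enriched 1081 bases downstream in the intron. The ETO2-only site of *Zfp217* lay 3585 bases upstream (9.33-fold).

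The 200 bases around the centres of 4 of these sites are shown as a selection of those at members described below, and not all such sites are shown. They are plus-strand mm9 sequences. Capitals mark each GATAA, a form of the GATA-factor core, on either strand (so also TTATC). They also mark each CANNTG, the E-box core bound by TAL1-type factors, which has the same letters on both strands. The windows are chr15:103169922-103170121 (*Zfp385a*), chr8:114166427-114166626 and chr8:114168325-114168524 (*Zfp1*) and chr2:169977089-169977288 (*Zfp217*).
Zfp385a, shared: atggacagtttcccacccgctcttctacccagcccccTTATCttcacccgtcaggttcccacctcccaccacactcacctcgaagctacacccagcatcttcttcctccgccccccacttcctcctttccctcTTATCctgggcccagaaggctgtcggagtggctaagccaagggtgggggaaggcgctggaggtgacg
Zfp1, shared, upstream: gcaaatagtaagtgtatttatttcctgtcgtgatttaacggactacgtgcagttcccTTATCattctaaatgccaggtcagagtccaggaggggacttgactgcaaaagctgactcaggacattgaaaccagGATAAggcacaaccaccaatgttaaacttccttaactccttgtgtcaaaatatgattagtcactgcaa
Zfp1, shared, intron: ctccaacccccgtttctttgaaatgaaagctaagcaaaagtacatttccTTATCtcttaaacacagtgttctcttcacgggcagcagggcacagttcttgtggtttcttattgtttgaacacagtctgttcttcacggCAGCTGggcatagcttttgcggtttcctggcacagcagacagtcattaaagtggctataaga
Zfp217, ETO2-only: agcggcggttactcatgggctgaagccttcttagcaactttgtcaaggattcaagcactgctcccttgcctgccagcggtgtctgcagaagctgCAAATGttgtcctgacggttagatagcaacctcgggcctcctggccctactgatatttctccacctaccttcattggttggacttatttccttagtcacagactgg

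The *Zfp385a* window held 2 GATAA matches and no CANNTG, the upstream *Zfp1* window also 2 and none, and its intron window 1 of each. The *Zfp217* window held 1 CANNTG and no GATAA. The composite E-box/GATA motif given in the study also allows AGATAG as its GATA part. The *Zfp217* window held AGATAG after a CTG at a fitting distance, a form that the search for GATAA does not count. Among all windows of this length, GATAA was found in 84.2% of the 2730 shared sites, 81.7% of the 1760 ETO2-only sites and 39% of the 8739 IRF2BP2-only sites. CANNTG was found in 76.4%, 70.5% and 73% of them. These matches describe letters in the windows, not occupied sites.

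In the *Irf2bp2* KD, where *Irf2bp2* mRNA itself differed by a log2 of -0.33, most members were not called and more fell than rose. At an adjusted p of at most 0.05 and a log2 fold change of at least 0.5 in size (the limits for a call throughout), 27 members fell and 13 rose of 221, which is 12.2% and 5.88%. Over all 12329 genes tested 12.5% fell and 10.1% rose. Among the 9758 tested genes at 2 RPKM or more the shares were 10.7% and 10.0%. The share of members that fell was thus near that of all genes and slightly above that of genes at this level. The share that rose was lower than both. The median log2 fold change of the members was -0.09, against -0.01 over all genes, and 132 of 221 (59.7%) lay below 0, against 50.7% of all genes. Differences are in RNA per library, so fewer cells of a kind and less RNA per cell cannot be told apart. The summed level of the 7 erythroid markers moved with this KD, from 944 and 1018 CPM in the controls to 1806 and 1846 CPM, and its part in the members' values was not tested.

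*Zfp420* (chr7:30644998-30700678), a gene of 22 fingers, fell the most. It was at 12 and 12.6 CPM in the controls and 4.35 and 4.21 CPM in the KD libraries, a fall by 1.52 ± 0.13 (log2, SE, adjusted p = 8.19e-08). The annotated span of *Zfp27*, on the opposite strand, overlaps it, and *Zfp27* itself was at 9.39 and 10.6 CPM against 9.17 and 10.4 CPM. *Zfp354c* (chr11:50624588-50641226), which carries the KRAB-like core, was at 18.7 and 19.3 CPM and then 8.81 and 7.31 CPM, and fell by 1.24 ± 0.12 (adjusted p = 2.91e-07). In both genes the KD libraries lay far below the controls, and the spread within each group was small beside the gap.

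*Zfp106* (chr2:120332556-120389579) was the most abundant member that fell. Its levels were 851 and 745 CPM in the controls and 423 and 372 CPM in the KD libraries, a fall by 1.01 ± 0.10 (adjusted p = 4.00e-07). *Zfp516*, whose product is known to bind the LSD1 and CtBP co-repressors, was at 23.1 and 28.9 CPM against 12.5 and 10.0 CPM and fell by 1.21 ± 0.13 (adjusted p = 8.56e-07). *Zfp217* (chr2:169934143-169973603), another partner of the CoREST and CtBP co-repressors, was at 115 and 114 CPM against 80.8 and 76.5 CPM and fell by 0.54 ± 0.08 (adjusted p = 3.92e-05), a call lost without KD library 2.

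On the rising side, *Zfp142*, the member with the most fingers, was at 65.3 and 61.7 CPM in the controls and 126 and 105 CPM after KD, up by 0.87 ± 0.09 (adjusted p = 1.14e-06). *Zfp367* (ZFF29, described as an activator of globin promoters in erythroid cells) was at 38.0 and 36.9 CPM and then 64.5 and 69.3 CPM, up by 0.84 ± 0.08 (adjusted p = 5.18e-07). *Zfp575* and *Zfp296* rose by 0.59 each, the latter from 4.81 and 5.34 CPM to 8.38 and 6.9 CPM, a call lost without KD library 1. *Zfp385a*, with the strong shared site shown above, was at 76.7 and 84.5 CPM against 115 and 126 CPM and rose by 0.58 ± 0.09 (adjusted p = 3.75e-05). No KD library of these 5 genes overlapped a control.

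Among the 85 members with the KRAB-like core none rose and 14 (16.5%) fell, beside 10.1% and 12.5% of all genes, with a median log2 fold change of -0.21 (quartiles -0.42 and -0.01), and 65 of them lay below 0. Among the 129 C2H2 members without the core 12 (9.3%) rose and 12 (9.3%) fell, with a median of 0.02. The difference between the classes was not tested. Besides *Zfp354c*, the core-bearing members that fell included *Zfp81* (-0.97), *Zfp758* (-0.85), *Zfp534* (-0.82) and *Zfp266* (-0.77, from 202 and 197 CPM to 119 and 116 CPM). *Zfp1*, with 2 shared sites at its start, fell by 0.52 ± 0.12 (adjusted p = 0.00248), from 11.1 and 10.2 CPM to 7.41 and 7.44 CPM, a call lost without control 1. By binding site, of the 54 with a site of any class 4 rose and 7 fell (median -0.08), and of the 161 with none 7 rose and 20 fell (median -0.09), which are to be read against the same shares of all genes.

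**Figure D1:**
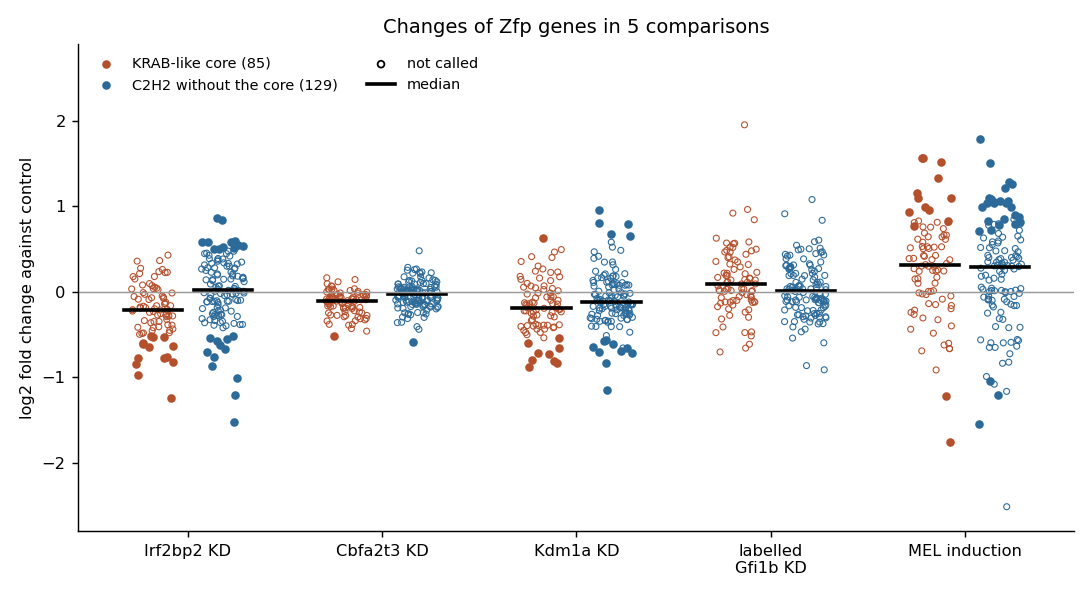
Log2 fold change (y axis) of the members with a KRAB-like core (85, red) and of those with C2H2 fingers and no core (129, blue) in 5 comparisons (x axis). Filled points passed the limits for a call, open points did not, and black bars are medians. In *Irf2bp2* KD the red points have a median of -0.21 and no filled point above 0, and in MEL induction the medians are 0.32 and 0.30. For *Kdm1a* KD, which has 1 control, a filled point is past 0.5 in both KD libraries.

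In the *Cbfa2t3* KD, whose controls chose the members, all values lay between -0.58 and 0.48 (log2), with a median of -0.07. The erythroid marker sum was 1135 and 1156 CPM in the controls and 1471 to 1557 CPM in the 4 KD libraries, and its part in these values was not tested. No member was past the limits upward and 2 were downward, beside 2.99% and 2.75% of the 12537 genes tested. These were *Zfp260* (19.6 and 19.2 CPM in the controls, 13.6 and 12.8 CPM with sh2, 13.7 and 11.8 CPM with sh3) and *Zfp931* (33.4 and 28.4 CPM, then 22.5, 19.6, 22.1 and 22.4 CPM). Neither was past them without control 1, nor *Zfp931* without the library of sh2 replicate 2 or with sh3 alone. The highest value, 0.48 ± 0.07 (SE), was that of *Zfp385a*, at 105 and 114 CPM in the controls and 147 to 166 CPM in the 4 KD libraries. *Zfp106* lay at 751 and 733 CPM against 551 to 650.2 CPM, a log2 difference of -0.31, and *Zfp217* at 103 and 105 CPM against 75.1 to 88.4 CPM, -0.35. For *Zfp420*, the 11.1 to 13.1 CPM of the KD libraries lay between its controls (14.5 and 10.9 CPM). Between the hairpins, 1 member was past the limits upward with sh3 and 1 downward, beside 1.79% and 1.55% of 12360 genes.

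Depletion of *Kdm1a* has 1 control library, so no test was made and a member was counted when both KD libraries lay at least 0.5 (log2) from the control on the same side. By this rule 19 members were lower (8.6%) and 7 higher (3.17%), beside 9.8% and 13.1% of 12628 genes. Among the 9777 tested genes at 2 RPKM or more the shares were 9.0% and 8.7%. The erythroid marker sum was 1119 CPM in the control and 852 and 849.8 CPM in the KD libraries, and its part in these values was not tested. The median of the members was -0.14, against 0.00 over all genes, and 151 of 221 (68.3%) lay below 0, against 49.9% of all genes. *Zfp740* (chr15:102034079-102046037), a short protein with 2 fingers and a shared site 4608 bases inside the gene, was the lowest. The control held 115 CPM of it and the KD libraries 52.3 and 51.0 CPM, a log2 difference of -1.15. *Zfp760* (14.1 CPM against 8.52 and 6.94 CPM, with a shared site 4965 bases upstream), *Zfp322a* (35.3 against 19.5 and 20.0 CPM) and *Zfp930* (48.0 against 25.6 and 28.4 CPM) were the next. Of the 6 members near a shared site, 3 were lower by this rule, the third being *Zfp341* at 12.1 CPM against 7.78 and 7.55 CPM. The others, *Zfp1* (0.496), *Zfp385a* (0.32) and *Zfp316* (0.10), had log2 differences above 0 and were not counted.

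The 7 members that were higher after *Kdm1a* KD are 3.17% of the members, beside the 13.1% of all genes. *Zfp275* was the highest, with 17.4 CPM in the control against 34.6 and 33.2 CPM (log2 difference 0.96). *Zfp516* stood at 17.7 CPM against 33.0 and 29.1 CPM (0.80). *Zfp644*, a partner of the G9a and GLP methyltransferases, stood at 41.3 against 71.0 and 73.0 CPM (0.80), and *Zfp217* at 97.6 against 157 and 149 CPM (0.65). The last 3 are on the list of co-repressor partners. The other 4 members of that list lay below the control in both KD libraries without reaching the limit, *Zfp687* at -0.40, *Zfp703* at -0.31, *Zfp219* at -0.30 and *Zfp592* at -0.10, and the median of the 7 was -0.10. Of the 4 members on the list of KRAB repressors of retroelements and imprinted genes, 2 were higher by the rule, while *Zfp932* (-0.47) and *Zfp445* (-0.34) lay below the control in both KD libraries without being counted. *Zfp809*, which silences murine leukaemia virus DNA, was at 57.3 CPM against 91.7 and 86.1 CPM (0.63), and *Zfp568*, a repressor of a placental *Igf2* promoter, at 39.4 against 64.5 and 61.9 CPM (0.68). With *Zfp839* (8.65 against 15.9 and 13.5 CPM), these make the 7. Some members were called in both *Irf2bp2* KD and *Kdm1a* KD. They are listed without the share over all genes, so no pattern is read from them. *Zfp217*, *Zfp516* and *Zfp839* were lower in *Irf2bp2* KD (*Zfp217* not without KD library 2) and higher in *Kdm1a* KD. *Zfp266*, *Zfp397*, *Zfp534*, *Zfp322a*, *Zfp933* and *Zfp600* were lower in both.

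**Figure D2:**
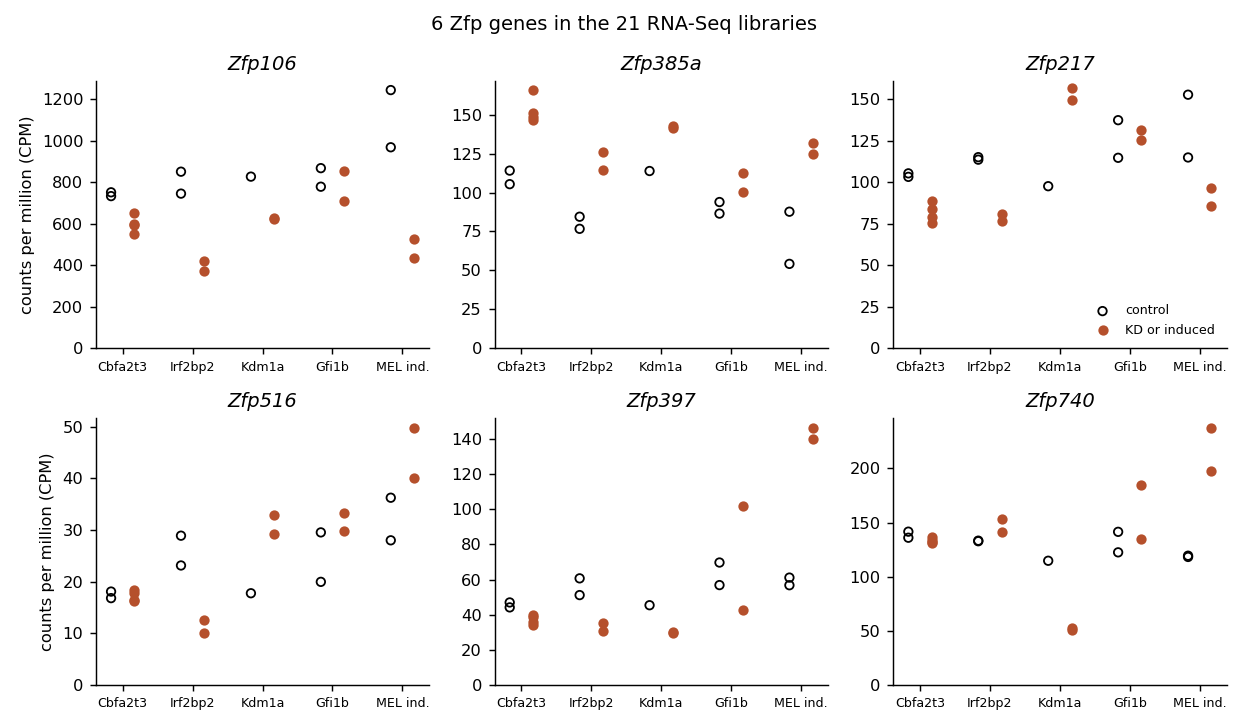
Library-size-scaled counts (CPM, y axes, from 0) of 6 members in all 21 RNA-Seq libraries, grouped by experiment (x axes). Open points are control or non-induced libraries and red points are KD or induced libraries. *Zfp106* lies below its controls in *Irf2bp2* KD (423 and 372 against 851 and 745 CPM) and on induction, and *Zfp217* lies below them in *Irf2bp2* KD and above the control in *Kdm1a* KD.

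Induction of MEL cells raised more members than it lowered. Of the 221 members 36 rose (16.3%) and 5 fell (2.26%), beside 12.4% and 14.8% of the 11713 genes tested. Among the 9664 tested genes at 2 RPKM or more the shares were 11.3% and 15.4%. The median log2 fold change of the members was 0.30, a 1.23-fold rise, against -0.02 over all genes, and 151 of 221 (68.3%) lay above 0, against 48.9% of all genes. The members together took 1.06% and 1.07% of the counts of the non-induced libraries and 1.28% and 1.39% of those of the induced libraries. Leaving out a library moved the number that rose. It was 15 without induced library 2 or without non-induced library 2, 18 without non-induced library 1 and 38 without induced library 1. The median over the members lay between 0.17 and 0.38 in the 4 pairs of an induced and a non-induced library. The erythroid marker sum moved with induction too, from 1056 and 812 CPM to 2060 and 1953 CPM, and its part in the result was not tested.

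*Zfp329* (chr7:13390326-13404207), with 12 fingers, rose the most. It was at 18.8 and 25.4 CPM in non-induced cells and at 75.4 and 76.7 CPM in induced cells, up by 1.79 ± 0.27 (log2, SE, adjusted p = 0.000447). The next were *Zfp952* (10.9 and 12.7 CPM, then 31.2 and 38.7 CPM, adjusted p = 0.00245), *Zfp617* (40.5 and 34.7 CPM, then 106 and 117 CPM, adjusted p = 0.000635) and *Zfp866* (37.8 and 23.2 CPM, then 85.8 and 89.6 CPM, adjusted p = 0.00174), which rose by 1.57, 1.57 and 1.52. These 3 carry the KRAB-like core. *Zfp866* overlaps *Atp13a1* on the opposite strand, and *Zfp617* overlaps *Zfp882* on the same strand, which was at 36.0 and 43.1 CPM and then 55.0 and 55.1 CPM and did not pass the test. The induced libraries of these 4 rising genes lay above the non-induced ones without overlap.

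The 5 members that fell on induction were *Zfp940*, *Zfp239*, *Zfp661* (-1.21), *Zfp106* and *Zfp831* (-1.04). Without the filter on low counts 9 fell. The call of *Zfp661* was lost without induced library 2 and without either non-induced library, and that of *Zfp239* without induced library 2 or non-induced library 2. *Zfp940* was at 15.7 and 17.2 CPM and then 5.19 and 4.61 CPM, a fall by 1.75 ± 0.37 (adjusted p = 0.00379). *Zfp239* was at 9.96 and 15.1 CPM and then 5.46 and 3.05 CPM, a fall by 1.55 ± 0.43 (adjusted p = 0.018). *Zfp106* was at 969 and 1244 CPM and then 528 and 433 CPM, a fall by 1.20 ± 0.25 (adjusted p = 0.00347). The lowest value of all, -2.51 for *Zfp428*, did not pass the test (adjusted p = 0.0689), at 2.49 and 1.51 CPM and then 0.69 and 0 CPM, near the lower end of what this depth can measure.

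By protein class, of the 85 members with the KRAB-like core 12 rose (14.1%) and 2 fell (median 0.32), and of the 129 C2H2 members without it 24 rose (18.6%) and 3 fell (median 0.30), beside 12.4% and 14.8% of all genes. The difference between the classes was not tested, and the counts in the runs below stand beside the same shares. The runs of neighbouring genes did not all move the same way. In the run from *Zfp398* to *Zfp746* (chr6:47785660-48036592) all 6 members lay above 0, between 0.31 and 1.51, and 3 of them rose, among them *Zfp212*, from 17.0 and 11.4 CPM to 37.3 and 43.9 CPM. In the run from *Zfp51* to *Zfp758* (chr17:21587316-22514248) all 11 members carry the KRAB-like core. On induction 9 of them lay above 0 and 2 rose, with a median of 0.62, while in *Irf2bp2* KD 10 of the 11 lay below 0 and 3 fell, with a median of -0.28. The run of 13 members on chromosome 7 had a median of -0.21 on induction, with 1 fall and no rise. Members of a run share sequence and neighbourhood and are not replicates of each other.

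**Figure D3:**
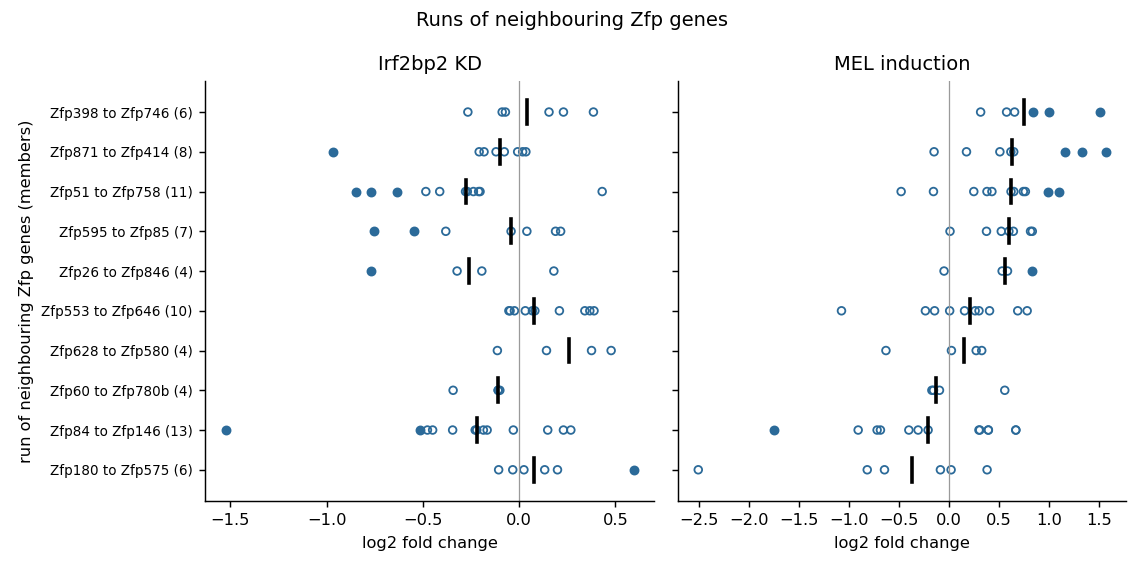
Log2 fold changes (x axes) of the members of 10 runs of neighbouring *Zfp* genes (y axis, first and last gene with the number of members) in *Irf2bp2* KD (left) and MEL induction (right). Filled points passed the limits for a call and black bars are run medians. On induction the medians range from -0.37 to 0.74.

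Called members of the lists in this and the next paragraph are to be read beside the shares of all genes. These were 10.1% higher and 12.5% lower in *Irf2bp2* KD, 12.4% and 14.8% on induction, and 13.1% and 9.8% in *Kdm1a* KD. Of the 4 members on the RNA-binding list, *Zfp385a* rose and *Zfp106* fell both in *Irf2bp2* KD and on induction. The rise of *Zfp385a* on induction did not pass without induced library 1 or without non-induced library 2. *Zfp346* (JAZ, which binds double-stranded RNA) rose on induction by 1.09 ± 0.25 (adjusted p = 0.00601), from 48.4 and 40.2 CPM to 87.6 and 100.7 CPM, a call lost without non-induced library 2. *Zfp326* was not called in any comparison. Of the 8 members acting on ribosomes, ubiquitin or the spindle, *Zfp207* rose on induction from 208 and 207 CPM to 355 and 363 CPM (0.79 ± 0.23, adjusted p = 0.0218). *Zfp91*, a ubiquitin ligase, rose from 107 and 119.8 CPM to 185 and 187 CPM (0.72 ± 0.23, adjusted p = 0.0352). Neither gene passed the limits when any 1 of the 4 libraries was left out. *Zfp706* was lower in *Kdm1a* KD (189 CPM against 113 and 122 CPM, -0.69). *Zfp598*, *Zfp622*, *Zfp593*, *Zfp330* and *Zfp830* passed the limits in no comparison.

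Of the 7 members on the list of promoter-binding factors, *Zfp281*, a GC-box binding factor of stem cells, rose on induction (109 and 122 CPM, then 167 and 230.2 CPM, 0.78 ± 0.25, adjusted p = 0.0324). That call was lost without induced library 2 and without either non-induced library. *Zfp143*, *Zfp148*, *Zfp384*, *Zfp410*, *Zfp335* and *Zfp131* passed the limits in no comparison. Among the 7 co-repressor partners, 2 fell in *Irf2bp2* KD, *Zfp217* and *Zfp516* as given above, and 1 rose. This was *Zfp703*, by 0.56 ± 0.10 (adjusted p = 0.000147). On induction *Zfp644* rose by 1.22 ± 0.26 (adjusted p = 0.00391), from 59.7 and 61.3 CPM to 115 and 167 CPM. *Zfp445*, a KRAB protein that guards imprinted genes, rose on induction from 159 and 219 CPM to 338 and 439 CPM (1.04 ± 0.26, adjusted p = 0.00995) and was called in no KD. It did not pass on induction without induced library 2 or without non-induced library 1.

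The 28 listed partners of KRAB zinc finger proteins (TRIM28, SETDB1, HP1, the HUSH and NuRD complexes and histone chaperones) were all measured in every comparison. *Trim28* itself was not called anywhere, with log2 fold changes between -0.20 and 0.35. In *Irf2bp2* KD none rose and 1 fell, beside 10.1% and 12.5% of all genes. It was *Chd3*, a NuRD helicase, which fell by 1.19 ± 0.09 (adjusted p = 1.07e-08). On induction 5 fell, beside 14.8% of all genes, *Chd3* by 1.99, *Mbd3* by 1.21, *Chaf1b* by 1.06, *Chaf1a* by 1.02 and *Rbbp7* by 0.94 (adjusted p between 0.000354 and 0.019). *Fam208a*, the TASOR subunit of HUSH, rose there by 1.61 ± 0.26 (adjusted p = 0.000811). In *Kdm1a* KD *Hdac2*, *Mbd3*, *Mta2* and *Cbx5* were lower in both libraries (-1.35, -0.78, -0.54 and -0.53) and none was higher, beside 9.8% and 13.1% of all genes. In *Cbfa2t3* KD *Chd3* lay at -0.93.

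Over *Irf2bp2* KD, *Kdm1a* KD (by its rule of both libraries) and induction, 141 of 221 members were called in none (63.8%), 55 in 1 (24.9%), 23 in 2 (10.4%) and 2 in all 3 (0.905%). Among the 11505 genes measured in these 3 comparisons the shares were 49.6%, 34.0%, 12.9% and 3.46%. The members called in all 3 were *Zfp397* and *Zfp322a*, each lower in *Irf2bp2* KD and *Kdm1a* KD and higher on induction. *Zfp397* was at 60.7 and 51.1 CPM against 35.2 and 30.9 CPM in *Irf2bp2* KD (-0.76 ± 0.10, adjusted p = 9.91e-06) and at 45.4 against 29.3 and 30.0 CPM in *Kdm1a* KD. On induction it went from 61.1 and 56.8 CPM to 146 and 140.2 CPM (1.28 ± 0.24, adjusted p = 0.00183). *Zfp322a* was at 43.8 and 38.3 CPM against 26.7 and 28.3 CPM in *Irf2bp2* KD and at 33.7 and 39.2 CPM against 62.5 and 72.8 CPM on induction. Its call in *Irf2bp2* KD was lost without control 1, and its call on induction without induced library 2 and without either non-induced library. Of the 40 members called in *Irf2bp2* KD and the 41 called on induction, 13 were shared (32.5% and 31.7%), beside 39.9% and 33.8% for all genes called in each. In 9 of these the direction was the same, among them *Zfp106*, *Zfp831*, *Zfp385a* and *Zfp367*, and in *Zfp397*, *Zfp322a*, *Zfp81* and *Zfp788* it was opposite. The induction call of *Zfp367* was lost when any 1 of the 4 libraries was left out and without the filter on low counts. Over all genes 906 of the 1049 called in both had the same direction (86.4%). Across all 221 members the Pearson r between these comparisons was 0.18, and over 11535 genes it was 0.44. These are correlations across genes, which are not independent replicates.

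**Figure D4:**
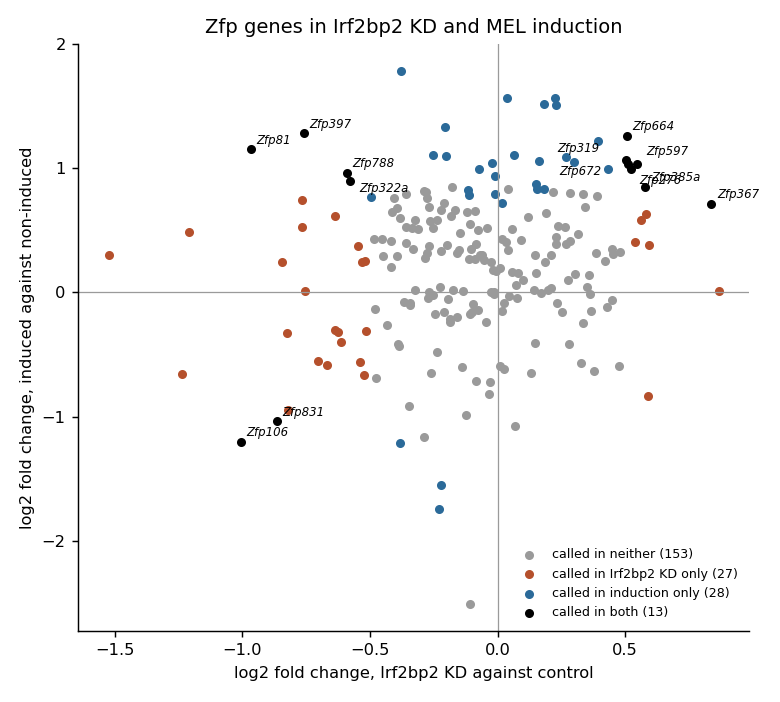
Log2 fold change on MEL induction (y axis) against that in *Irf2bp2* KD (x axis) for 221 members. Black points, with names, are the 13 called in both, red points were called in *Irf2bp2* KD only (27), blue points on induction only (28) and grey points in neither (153). *Zfp106* lies at -1.01 and -1.20, and *Zfp397* at -0.76 and 1.28.

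In the libraries labelled *Gfi1b* KD no member was called in either direction by edgeR's quasi-likelihood test, and neither was any of the 11190 genes tested (0% higher and 0% lower, with 784 genes at an unadjusted p under 0.05). At that unadjusted p 3 members were higher and 2 lower, and DESeq2 called 1 member higher and none lower. The smallest adjusted p of a member was 0.69, and the median of the members was 0.03. The 2 libraries differed from each other. Against the mean of both controls, the members had a median of 0.13 in KD 1, with 141 above 0, and of -0.11 in KD 2, with 81 above 0. *Zfp949* had the highest fitted value, 1.95, at 6.99 and 7.86 CPM in the controls, 43.9 CPM in KD 1 and 13.4 CPM in KD 2. *Zfp329* was at 14.9 and 16.2 CPM, 55.6 CPM and 10.0 CPM in the same order, and *Zfp866* at 33.5 and 28.5 CPM, 84.2 CPM and 33.2 CPM.

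Without KD 2, 35 members were called higher and 9 lower, beside 14.6% and 12% of the 11802 genes tested. Without KD 1, 1 was called higher and 5 lower, beside 2.25% and 1.23% of 11381 genes. In both fits the lone library is assumed to vary like the controls. Of the 35 called higher in KD 1 alone, 20 (57.1%) were among the 36 that rose on MEL induction (55.6%), *Zfp329*, *Zfp617*, *Zfp866* and *Zfp952* included. Over all genes 970 were higher in both, which is 56.8% and 68.8% of the respective lists. Across the 221 members the differences of KD 1 had a Pearson r of 0.62 with the log2 fold changes on induction (0.65 over all genes), and those of KD 2 an r of -0.09. The erythroid marker sum was 948 and 1034 CPM in the controls, 1665 CPM in KD 1 and 1033 CPM in KD 2. Since *Gfi1b* mRNA lay above both controls in KD 1, no direction after loss of *Gfi1b* is drawn from that library.

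**Figure D5:**
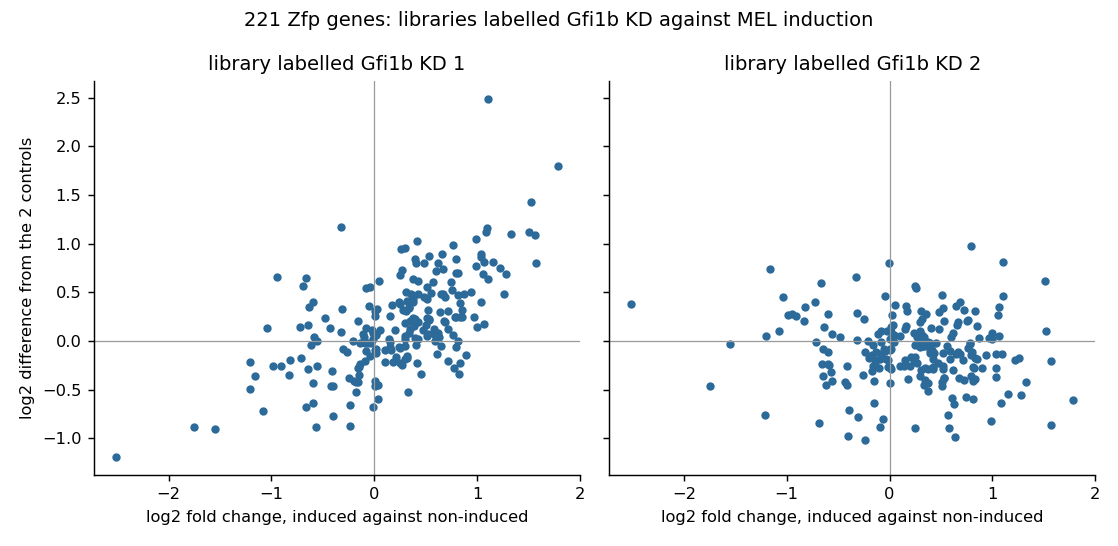
Log2 difference from the mean of both controls (y axes) in the library labelled *Gfi1b* KD 1 (left) and KD 2 (right) against the log2 fold change on MEL induction (x axes) for 221 members. The points of KD 1 rise along the x axis (Pearson r = 0.62) and those of KD 2 do not (r = -0.09).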

How the data were processed

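RNA was sequenced by the authors with a standard TruSeq protocol, which does not mark strand, and mapped with TopHat2 to mm9. The deposited tables give read counts and RPKM per RefSeq gene. The authors' own comparison columns (fold changes and p-values) were not used. For the binding sites the authors deposited a class and a fold enrichment, a ratio of ChIP to IgG reads, after combining several peak callers.

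The members, lists and tests were chosen with earlier results of these data known. Counts as deposited were tested with edgeR 4.0.16 in R 4.3.3 (filterByExpr, TMM scaling, quasi-likelihood F test) on all genes of each table, with Benjamini-Hochberg adjustment over all genes tested. DESeq2 1.42.0, the tool the authors used, was an alternative. A call needed an adjusted p of at most 0.05 and a log2 fold change of at least 0.5 in size. *Kdm1a* KD was described on TMM-scaled log2 CPM with a prior count of 2. CPM values are TMM-scaled. The fits were tested on simulated data. A floor of 3 counts is 0.302 CPM in the shallowest library and 0.052 CPM in the deepest, for counting error only.

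Named are the members of 5 role lists, per comparison the 4 largest rises and 4 largest falls among called members whose groups do not overlap, members called in 3 or more comparisons, the 5 highest, those at the RPKM limit, those near a shared site, the called KRAB partners and the targeted genes. Others were named after their values were seen. Fingers and the KRAB-like core were searched in translated GENCODE M1 coding sequences, not in RefSeq proteins as first planned. Sites were assigned to GENCODE M1 gene starts on mm9. Alternatives were DESeq2 and its size factors, other filters, a replicate block, leaving out each library, other limits on fold change or RPKM, and other distances. Figures were drawn with matplotlib 3.10.9.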

Additional observations from a re-analysis of the deposited data

Results flagged for a closer look

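The 2 *Cbfa2t3* hairpins differed in 2 members under the limits for a call. With sh3 1 was higher and 1 lower (0.452% of the members each), beside 1.79% and 1.55% of 12360 genes. Without a limit on fold change 8 members differed at the adjusted p, a count given without a share over all genes. *Zfp706*, a small protein described as a translation regulator, was at 181 and 171 CPM in the controls, 100.4 and 107 CPM with sh2 and 164 and 161 CPM with sh3. The log2 change of sh3 against sh2 was 0.64, and against the controls it was -0.77 with sh2 and -0.12 with sh3. *Zfp61* was at 9.64 and 10.6 CPM in the controls, 13.4 and 12.5 CPM with sh2 and 8.86 and 9.18 CPM with sh3, and sh3 against sh2 gave -0.53, a call lost without sh2 replicate 1. For this gene sh2 lay above the controls (0.36) and sh3 below them (-0.17). What sets the hairpins apart in these genes was not tested.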

How the results depend on the processing

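Of 407 values for 58 named calls under other settings, 361 kept direction and side of the limits, 46 no longer passed (44 of 168 with a library left out, 2 of 239 otherwise) and none turned. The 58 do not cover every call that the text names. The counts of members below stand without the share over all genes at the same settings, so nothing about the members is read from them. Those of the *Cbfa2t3* KD are a description only, since its controls chose the members. Without a limit on fold change, *Irf2bp2* KD gave 44 members higher and 67 lower, and sh3 against sh2 2 and 6. Raising the limit to 5 RPKM leaves out 75 members. Of those that remained, 16 were lower in *Irf2bp2* KD, 0 lower with sh3 against sh2 and 4 higher in *Kdm1a* KD. At 1 RPKM or more, 8 were lower on induction and 5 in *Cbfa2t3* KD. Without the filter on low counts, *Gfi1b* KD gave 2 higher and induction 9 lower, and DESeq2 gave 1 higher in *Gfi1b* KD. With sh2 alone *Cbfa2t3* KD gave 1 higher and 5 lower. At a log2 of 1, *Kdm1a* KD gave 0 higher and 1 lower. Sites within 1 kb, within 20 kb and at or above the median enrichment gave 2, 13 and 2 members for ETO2-only and 2, 12 and 2 for shared sites. IRF2BP2-only sites gave 76 within 20 kb and 20 at or above the median enrichment.

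Leaving out each library gave 0 to 35 higher and 0 to 9 lower in *Gfi1b* KD, 15 to 38 and 3 to 6 on induction, 0 to 1 and 0 to 3 in *Cbfa2t3* KD, and 0 to 2 lower with sh3 against sh2. It gave 8 to 13 higher in *Kdm1a* KD. The *Gfi1b* KD median ran from -0.12 (without KD 1) to 0.11 (without KD 2) and was -0.05 without control 2. The cause of these shifts was not tested. Samples share only a replicate number, with deviations correlating at 0.03 (*Irf2bp2*), 0.00 (*Gfi1b*) and 0.20 (induction), at 0.12 to 0.25 between the 3 groups of the *Cbfa2t3* table and at 0.26 in the fit of the hairpins. A replicate block gave 45 higher and 12 lower on induction, 13 and 27 in *Irf2bp2* KD and 0 and 0 in *Gfi1b* KD, and left *Cbfa2t3* KD at 0 and 2 and sh3 against sh2 at 1 and 1. The *Gfi1b* and induction libraries are the shallowest, which limits members of low level there.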
